A study of Mus musculus with 4 samples.

Results

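Glycolysis and hypoxia genes are taken here as 37 genes chosen by symbol. They comprise 16 glycolytic enzymes, 4 transporters of glucose or lactate, 16 genes known as targets of the hypoxia-inducible factor (HIF), and Hif1a, which encodes the regulated subunit of that factor. A one-gene probe set, that is a group of array probes assigned to a single gene, was found for 34 of the 37, out of 19938 genes with such a probe set on the array. The enzyme genes Gpi1, Gapdh and Eno1 had none, because Gapdh is named only on probe sets shared with other genes and Gpi1 and Eno1 are not named in the annotation used, so these 3 were not analysed here and 13 enzymes remained.

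The cells were mouse embryonic fibroblasts (MEFs), connective tissue cells cultured from embryos. One pair of cultures carried the label NFAT5/TonEBP knockout and was kept in hypertonic or isotonic medium, and the other pair was wild type and was kept in hypertonic or isotonic medium. All cells were unsynchronised and were harvested after 20 hours, the hypertonic medium having been adjusted to 450 mosmol/kg. The labels do not say which part of Nfat5 was deleted, how many embryos or isolates stand behind each genotype, or the osmolality of the isotonic medium. For each genotype and medium, 4 samples were pooled and hybridised to 1 Affymetrix whole-transcript mouse gene array, so no difference has a spread between replicates or a p-value, and every number describes these pools.

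Glycolysis turns glucose into pyruvate in the cytosol, and lactate dehydrogenase then turns pyruvate into lactate, which leaves the cell through monocarboxylate transporters. HIF is a transcription factor whose alpha subunit is hydroxylated by the Egln enzymes and destroyed while oxygen is plentiful. When oxygen falls, the alpha subunit is stable and HIF raises the transcription of many glycolytic enzymes and of genes for mitochondrial turnover, collagen hydroxylation, blood vessel growth and pH control. NFAT5, also called TonEBP, is the transcription factor that drives osmolyte genes in hypertonic medium.

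Signals are log2 values per probe set, and differences are differences of these log2 signals. A gene counts as measured in a comparison when its signal lay above the dim limit, the median of an array's one-gene probe sets (5.38 to 5.44), on at least 1 of the arrays compared. A gene is counted as higher or lower when it differed at least 2-fold, 1 on the log2 scale. For genes with 2 distinct probe sets, the difference varied between probe sets. The SD per probe set was 0.19 in the knockout-labelled response and 0.15 in the wild-type response. It was 0.19 between genotypes in isotonic medium and 0.21 between genotypes in hypertonic medium. This SD describes disagreement between probe sets of a gene on the same arrays and not variation between cultures.

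Correlations between arrays over all probe sets lay between 0.979 and 0.989, with the knockout-labelled hypertonic array lowest against both wild-type arrays. Nfat5 read 8.24 and 8.03 in knockout-labelled hypertonic and isotonic cells, against 8.19 and 7.74 in wild-type hypertonic and isotonic cells. It was not lower under the knockout label, and a probe set outside the deleted part would not check that label, which is why the term knockout-labelled is used. Of 12 fibroblast marker genes, 10 lay above the dim limit on all 4 arrays (Dcn and Lum did not). None of 6 endothelial markers did on any array, and of 7 blood and macrophage markers only Cd68 did. Of 7 epithelial markers, 2 or 3 did on each array, Krt18 on all 4 and Krt8, Cdh1 and Cldn4 on some. The skeletal muscle marker Acta1 and the neural marker Tubb3 did on all 4, and Tubb3 was lower in knockout-labelled than in wild-type cells in isotonic (-2.09) and hypertonic (-1.07) medium.

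**Figure D1:**
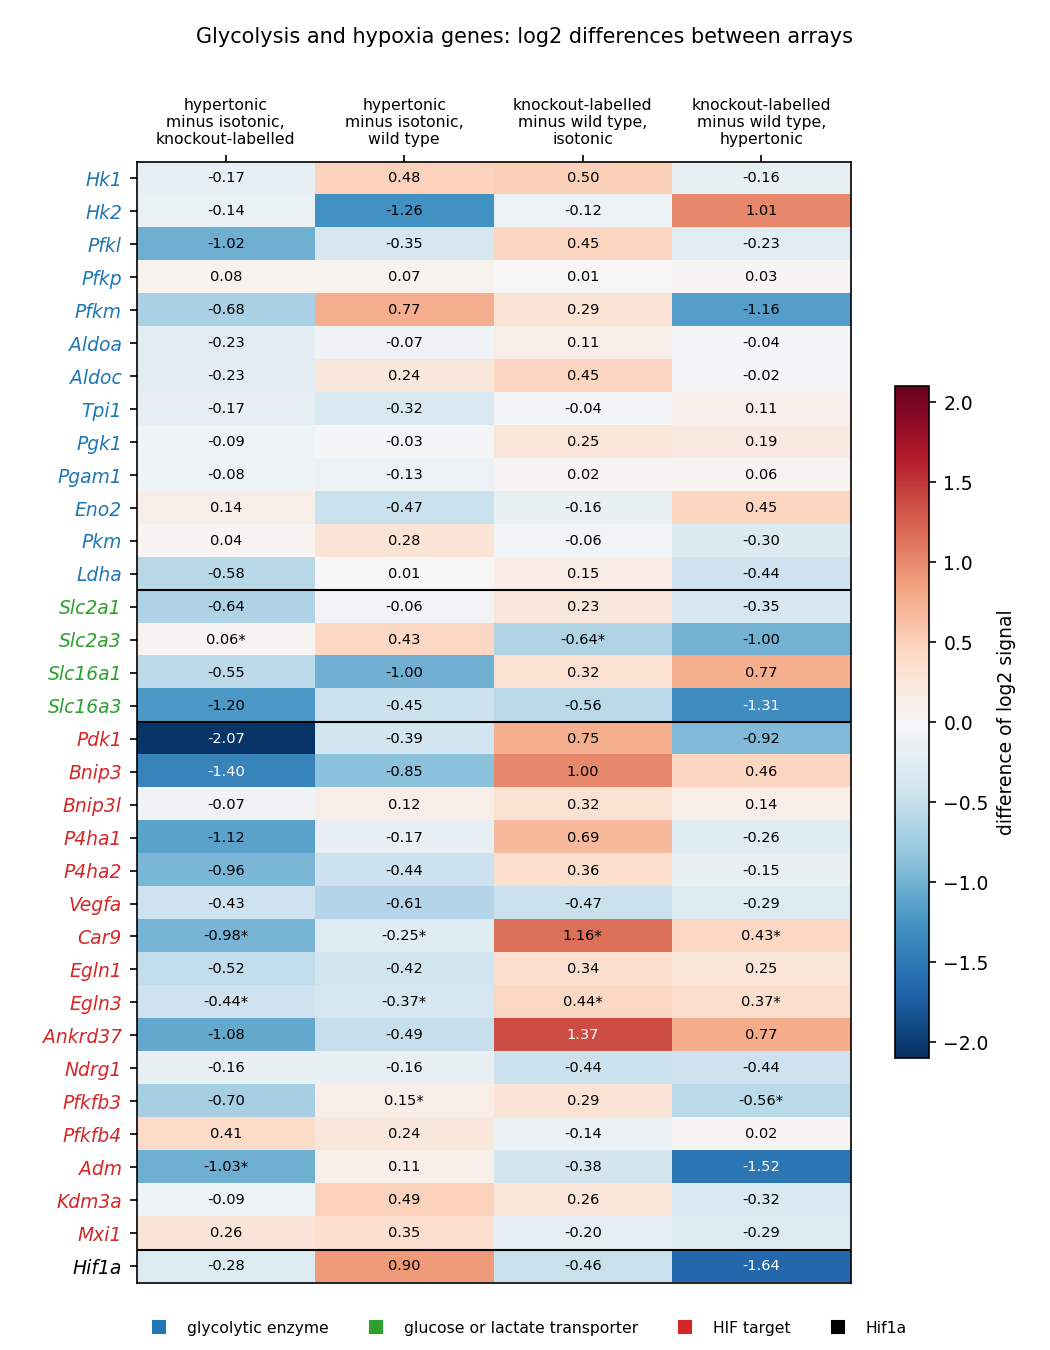
Log2 differences of the 34 genes in the 4 comparisons between arrays (columns), grouped by role (rows; colour of the name), on a colour scale from blue (lower) to red (higher); an asterisk marks a gene not above the dim limit on either array. The left column holds 6 measured genes below -1, led by Pdk1 (-2.07), and in the right column Hif1a (-1.64), Adm (-1.52), Slc16a3 (-1.31) and Pfkm (-1.16) are lowest.

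In knockout-labelled cells 4 of 13 measured HIF targets were at least 2-fold lower in hypertonic than in isotonic medium, while others differed little or read higher. Of the 30 measured genes, 6 were at least 2-fold lower and none was higher. Over all 10277 genes measured in this comparison, 3.08% were at least 2-fold lower and 0.379% at least 2-fold higher. The 6 were the HIF targets Pdk1, Bnip3, P4ha1 and Ankrd37, the lactate exporter gene Slc16a3 and the phosphofructokinase gene Pfkl. Pfkl and Ankrd37 came to lie inside 2-fold after quantile normalization (both -0.95) or centring. In all, 25 of the 30 lay below 0 and 5 above, against 60.1% and 39.9% of all measured genes, with a median of -0.25 against -0.09 for all measured genes. With genes below the dim limit included, 28 of 34 lay below 0 (45.7% of all genes) and Adm was a seventh gene past 2-fold. Since 30 of these 34 were measured, the 60.1% of measured genes is the nearer background.

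Pdk1, a kinase that switches off pyruvate dehydrogenase, had the largest difference of the set. Its signal was 5.41 in knockout-labelled hypertonic cells, against 7.48 in knockout-labelled isotonic cells, and 6.33 in wild-type hypertonic cells, against 6.73 in wild-type isotonic cells. The knockout-labelled pair thus held both the highest and the lowest of the 4 values. The difference in knockout-labelled cells was -2.07, or 4.19-fold lower, and ranked 8 from the lowest among 10277 genes, while the wild-type difference was -0.39. The hypertonic value lay at the dim limit of 5.41, so the size of the knockout-labelled difference is poorly determined.

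Bnip3, a mitochondrial outer membrane protein that promotes mitophagy, read 8.72 in knockout-labelled hypertonic cells, against 10.13 in knockout-labelled isotonic cells, and 8.27 in wild-type hypertonic cells, against 9.12 in wild-type isotonic cells. It was lower in hypertonic medium in both genotypes, by differences of -1.40 and -0.85. A second Bnip3 probe set gave -1.19 and -0.43, the same directions with smaller sizes. Bnip3l, its close relative in mitophagy, differed by -0.07 in knockout-labelled and 0.12 in wild-type cells, both within the spread between probe sets.

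The collagen prolyl hydroxylase genes differed in the same direction. P4ha1, an alpha subunit of the enzyme that hydroxylates procollagen, read 9.20 in knockout-labelled hypertonic cells, against 10.32 in knockout-labelled isotonic cells, and 9.46 in wild-type hypertonic cells, against 9.63 in wild-type isotonic cells. Its differences were -1.12 in knockout-labelled and -0.17 in wild-type cells. P4ha2, the other alpha subunit, was lower by a difference of -0.96 in knockout-labelled cells, just inside the 2-fold limit, and of -0.44 in wild-type cells.

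Ankrd37, a small ankyrin repeat protein known as a HIF target, read 5.80 in knockout-labelled hypertonic cells, against 6.88 in knockout-labelled isotonic cells, and 5.03 in wild-type hypertonic cells, against 5.51 in wild-type isotonic cells. Only the wild-type hypertonic value lay below the dim limit. The differences were -1.08 and -0.49.

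Among the other HIF targets, Egln1, the main HIF prolyl hydroxylase, was lower by like amounts in both genotypes, -0.52 in knockout-labelled and -0.42 in wild-type cells. Vegfa, the blood vessel growth factor, differed by -0.43 and -0.61, so here the wild-type difference was the larger in size. Ndrg1, a stress-responsive gene induced by hypoxia, differed by -0.16 in each genotype. The histone demethylase gene Kdm3a (-0.09 in knockout-labelled and 0.49 in wild-type cells), the MYC antagonist gene Mxi1 (0.26 and 0.35) and the gene of the bifunctional phosphofructokinase-2 enzyme Pfkfb4 (0.41 and 0.24) did not read lower beyond the spread between probe sets in either genotype. Pfkfb3, whose enzyme makes the fructose 2,6-bisphosphate that activates phosphofructokinase, was above the dim limit only in knockout-labelled isotonic cells, so its difference of -0.70 was measured only because the isotonic signal was the higher one.

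Adm, encoding the vasodilator peptide adrenomedullin, lay above the dim limit only in wild-type cells. It read 4.21 in knockout-labelled hypertonic cells and 5.24 in knockout-labelled isotonic cells, against 5.73 and 5.62 in wild-type hypertonic and isotonic cells. Car9, a carbonic anhydrase and classical hypoxia marker, and Egln3, an inducible HIF hydroxylase, lay below the dim limit on all 4 arrays. Car9 read 4.28 and 5.26 in knockout-labelled hypertonic and isotonic cells, against 3.85 and 4.10 in wild-type hypertonic and isotonic cells. The Egln3 values ran from 4.22 to 5.03 and were also highest in knockout-labelled isotonic cells.

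**Figure D2:**
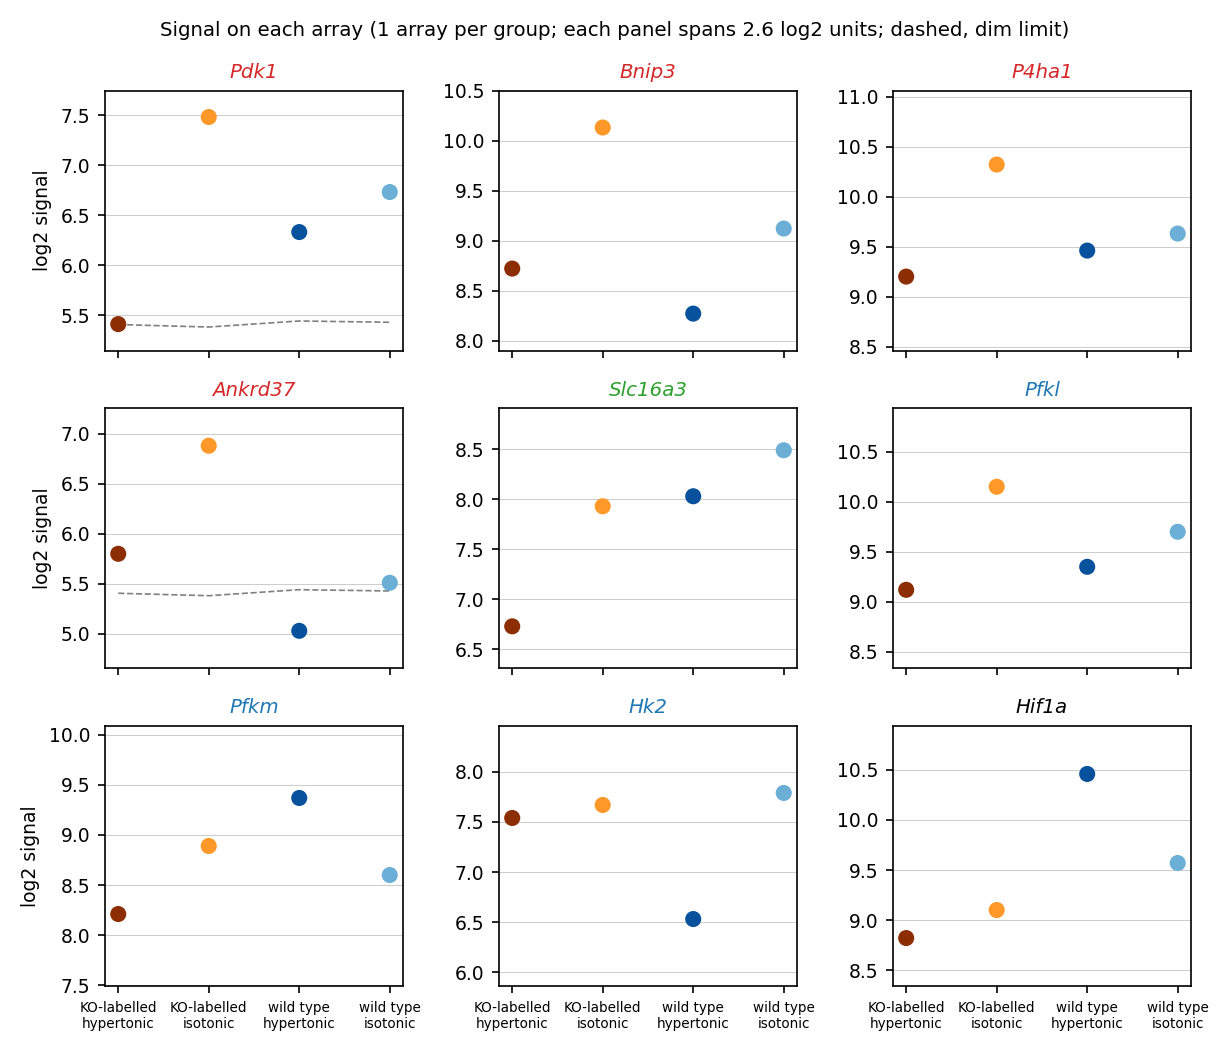
Log2 signal (vertical axes, each spanning the same range) of 9 genes on the 4 arrays, 1 point per array; the dashed line is the dim limit where it falls in the panel. Pdk1, Bnip3, P4ha1, Ankrd37 and Pfkl read highest in knockout-labelled isotonic cells, and Hif1a and Pfkm read highest in wild-type hypertonic cells.

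Promoters of the 6 genes past 2-fold in knockout-labelled cells are printed because HIF is known to bind a core of letters ACGTG. The sequences are from RefSeq on GRCm38.p6 and run from 250 bases before to 50 after the start site farthest upstream, and capitals mark ACGTG on either strand (read as CACGT for the opposite strand). The windows are chr2:71872974-71873273 (plus strand) for Pdk1, chr7:138909457-138909756 (minus strand) for Bnip3, chr10:59323046-59323345 (plus strand) for P4ha1, chr8:45999801-46000100 (minus strand) for Ankrd37, chr11:120948817-120949116 (plus strand) for Slc16a3 and chr10:78009758-78010057 (minus strand) for Pfkl.
Pdk1: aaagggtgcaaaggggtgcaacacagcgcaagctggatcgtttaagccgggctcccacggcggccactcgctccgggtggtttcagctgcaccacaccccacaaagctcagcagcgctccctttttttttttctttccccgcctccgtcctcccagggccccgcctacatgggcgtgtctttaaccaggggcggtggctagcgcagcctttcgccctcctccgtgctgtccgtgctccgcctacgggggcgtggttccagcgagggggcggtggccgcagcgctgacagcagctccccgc
Bnip3: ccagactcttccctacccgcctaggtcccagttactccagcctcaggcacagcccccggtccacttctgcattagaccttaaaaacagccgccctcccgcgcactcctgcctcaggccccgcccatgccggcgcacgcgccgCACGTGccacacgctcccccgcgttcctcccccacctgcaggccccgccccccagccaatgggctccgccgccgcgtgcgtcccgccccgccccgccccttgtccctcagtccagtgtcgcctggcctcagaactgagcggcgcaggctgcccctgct
P4ha1: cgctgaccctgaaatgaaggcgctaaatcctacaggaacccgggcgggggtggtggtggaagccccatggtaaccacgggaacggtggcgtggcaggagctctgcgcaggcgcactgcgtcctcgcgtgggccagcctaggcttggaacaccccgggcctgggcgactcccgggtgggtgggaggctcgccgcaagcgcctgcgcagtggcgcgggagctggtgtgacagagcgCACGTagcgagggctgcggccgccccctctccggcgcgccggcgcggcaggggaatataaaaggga
Ankrd37: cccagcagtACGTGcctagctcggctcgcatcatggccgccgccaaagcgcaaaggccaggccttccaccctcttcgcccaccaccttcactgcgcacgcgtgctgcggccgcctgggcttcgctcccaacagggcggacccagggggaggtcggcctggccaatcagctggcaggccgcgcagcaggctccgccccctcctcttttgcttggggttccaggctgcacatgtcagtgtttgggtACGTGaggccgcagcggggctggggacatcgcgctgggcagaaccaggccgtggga
Slc16a3: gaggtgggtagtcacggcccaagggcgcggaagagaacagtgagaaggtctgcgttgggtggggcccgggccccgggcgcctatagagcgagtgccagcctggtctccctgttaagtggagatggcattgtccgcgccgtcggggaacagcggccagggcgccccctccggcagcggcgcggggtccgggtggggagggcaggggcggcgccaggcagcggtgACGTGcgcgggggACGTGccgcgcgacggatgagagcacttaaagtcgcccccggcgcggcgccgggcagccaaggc
Pfkl: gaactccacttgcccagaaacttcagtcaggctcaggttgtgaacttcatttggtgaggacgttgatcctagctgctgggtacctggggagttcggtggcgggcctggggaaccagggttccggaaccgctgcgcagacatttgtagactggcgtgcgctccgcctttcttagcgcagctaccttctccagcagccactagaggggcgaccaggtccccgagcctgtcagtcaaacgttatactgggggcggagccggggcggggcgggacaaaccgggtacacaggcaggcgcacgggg

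The core was in 4 of the 6 windows, and the Pdk1 and Pfkl windows held no match. Ankrd37 and Slc16a3 held 2 matches each and P4ha1 held 1. The 2 matches of Bnip3 overlap, one on each strand, in a single CACGTG, which is also the E-box core bound by other factors. A promoter was found for 34 of the 37 genes (not for Slc2a3, Bnip3l and Ndrg1), and 19 of these (55.9%) held ACGTG, against 27% of the promoters of 8487 genes above the dim limit on any array and 19.6% of those of all 27025 genes in the table. The share was 8 of 14 for HIF targets and 7 of 16 for enzymes. These 16 include Gpi1, Gapdh and Eno1, so the 34 genes with a promoter are not the 34 with a probe set. Members were listed partly as known HIF targets, so a share above that of other genes may follow from the choice. TGGAAA, the core of the tonicity element that NFAT5 is known to bind, was in 5 of the 34 (14.7%), against 15.9% of the promoters of genes above the dim limit, and in none of the windows of the 6 genes that were 2-fold lower. Matches in so short a window are a description of letters and not of binding.

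The transporters of fuel and product split by gene. Slc16a3 encodes MCT4, the monocarboxylate transporter that exports lactate from glycolytic cells. It read 6.73 in knockout-labelled hypertonic cells, against 7.93 in knockout-labelled isotonic cells, and 8.03 in wild-type hypertonic cells, against 8.49 in wild-type isotonic cells. Each hypertonic value was below its isotonic value and each knockout-labelled value was below the wild-type value in the same medium. The response was -1.20 in knockout-labelled and -0.45 in wild-type cells.

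Slc16a1 encodes MCT1, a monocarboxylate transporter that carries lactate in either direction, and its signal was 9.16 in knockout-labelled hypertonic cells, against 9.71 in knockout-labelled isotonic cells, and 8.39 in wild-type hypertonic cells, against 9.39 in wild-type isotonic cells. Here the larger difference was in wild-type cells, -1.002 against -0.55, and the wild-type difference lay at the 2-fold limit itself. Slc2a1, the widespread glucose transporter GLUT1, differed by -0.64 in knockout-labelled cells and -0.06 in wild-type cells. Slc2a3, the glucose transporter GLUT3, was above the dim limit only in wild-type hypertonic cells (5.58, against 5.15 in wild-type isotonic cells).

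Glycolytic enzymes read much the same in both media with a few exceptions, mainly but not only at the entry steps. Their 13 differences had a median of -0.17 in knockout-labelled and -0.03 in wild-type cells, against -0.09 and -0.02 for all measured genes. In each genotype 1 enzyme was at least 2-fold lower. It was Pfkl in knockout-labelled cells, against 3.08% of all measured genes, and Hk2 in wild-type cells, against 0.414%. Pfkl, the liver-type subunit of phosphofructokinase, read 9.12 in knockout-labelled hypertonic cells, against 10.15 in knockout-labelled isotonic cells, and 9.35 in wild-type hypertonic cells, against 9.70 in wild-type isotonic cells. Its differences were -1.02 and -0.35.

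The muscle-type subunit gene Pfkm read 8.21 in knockout-labelled hypertonic cells, against 8.89 in knockout-labelled isotonic cells, and 9.37 in wild-type hypertonic cells, against 8.60 in wild-type isotonic cells. It was thus lower in hypertonic medium in knockout-labelled cells (-0.68) and higher in wild-type cells (0.77). The third subunit gene, Pfkp, differed by 0.08 and 0.07, so the 3 subunit genes of the same enzyme had 3 patterns.

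Hexokinases, which phosphorylate glucose on entry, also differed from each other. Hk2 read 7.54 in knockout-labelled hypertonic cells, against 7.67 in knockout-labelled isotonic cells, and 6.53 in wild-type hypertonic cells, against 7.79 in wild-type isotonic cells. The wild-type hypertonic array alone read low, a difference of -1.26 that ranked 10 from the lowest among 10134 genes, while the knockout-labelled difference was -0.14. Hk1 differed by -0.17 in knockout-labelled and 0.48 in wild-type cells, or by -0.23 and 0.28 on its other probe set. That other probe set read 8.42 to 8.71 over the arrays, against 11.67 to 12.17 on the one used.

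The enzymes of the lower steps differed little. In knockout-labelled cells Aldoa and Aldoc (aldolases), Tpi1 (triosephosphate isomerase), Pgk1 (phosphoglycerate kinase), Pgam1 (phosphoglycerate mutase), Eno2 (an enolase) and Pkm (pyruvate kinase) lay between -0.23 and 0.14. In wild-type cells the same genes lay between -0.47 (Eno2) and 0.28 (Pkm). Ldha, the lactate dehydrogenase subunit that favours lactate, was an exception in knockout-labelled cells. Its signal was 11.71 in hypertonic and 12.29 in isotonic knockout-labelled cells, a difference of -0.58, and 12.15 in hypertonic and 12.14 in isotonic wild-type cells. Pgk1, Pgam1 and Pkm are known to have near-identical copies in the genome, which the probe sets may not tell apart.

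In wild-type cells only Hk2 and Slc16a1 of the 31 measured genes were at least 2-fold lower in hypertonic medium and none was higher, against 0.414% and 1.01% of 10134 measured genes. The median of the 31 was -0.07, against -0.02 for all measured genes, and 18 lay below 0 and 13 above, against 53.9% and 46% of all. Hif1a had the largest positive difference. It read 10.46 in wild-type hypertonic cells, against 9.57 in wild-type isotonic cells, a difference of 0.90 that ranked 149 from the highest. In knockout-labelled cells it read 8.82 in hypertonic and 9.10 in isotonic medium, a difference of -0.28, and both values lay below both wild-type values.

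Among HIF targets in wild-type cells, 8 of 13 lay below 0, near the 53.9% of all measured genes, and none passed 2-fold. HIF activity is set largely by the stability of the protein, which the arrays do not measure.

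**Figure D3:**
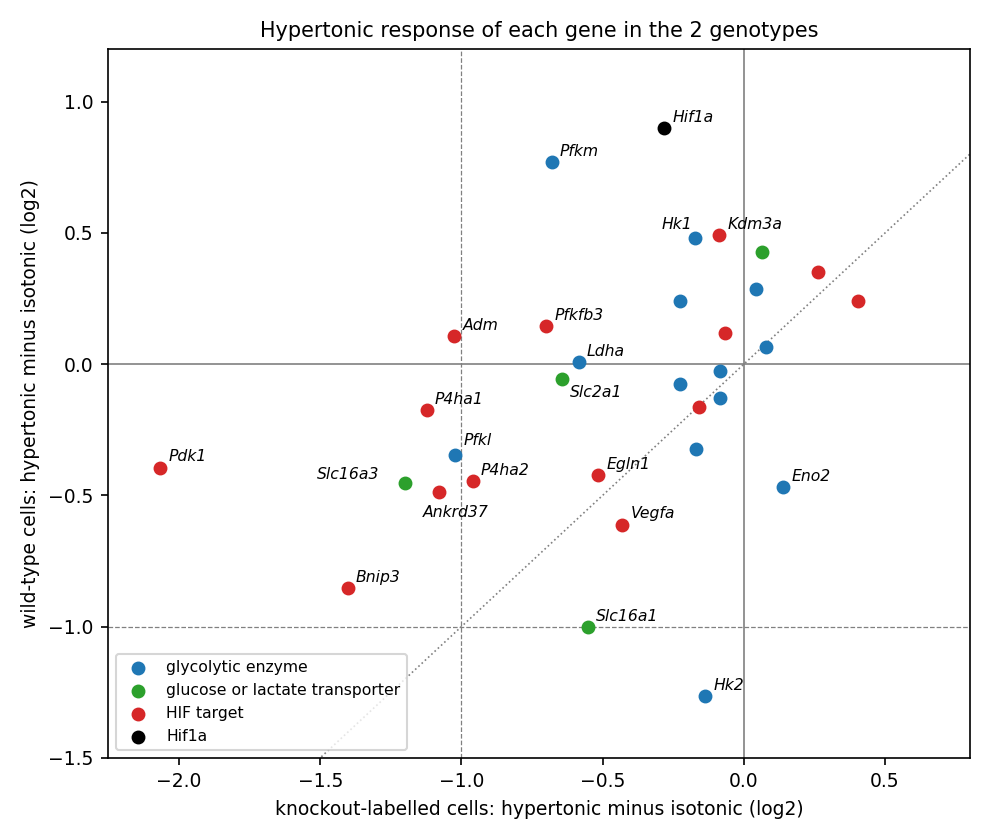
Hypertonic minus isotonic log2 difference of each of 32 genes in knockout-labelled cells (horizontal) and wild-type cells (vertical), coloured by role; the dotted line marks equal responses and the dashed lines 2-fold lower. Pdk1, Bnip3, Slc16a3, P4ha1, Ankrd37, Adm and Pfkl lie left of -1, Hk2 and Slc16a1 lie at or under -1 on the vertical axis, and no gene is past 2-fold on both. Adm was below the dim limit in both knockout-labelled cultures.

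Setting HIF targets beside enzymes, HIF targets had the lower median in both responses. The groups were set by role, and HIF also raises many glycolytic enzymes, so they do not separate HIF-driven genes from others. In knockout-labelled cells the medians were -0.52 for 13 HIF targets and -0.17 for 13 enzymes, a gap of -0.35, and 4 HIF targets lay below the lowest enzyme. In wild-type cells the medians were -0.17 and -0.03, a gap of -0.15, and with the dim limit at the 75th percentile the gaps were -0.34 and -0.27. The quartile range of HIF targets in knockout-labelled cells was 0.99, against 0.14 for enzymes, so the HIF targets were the more mixed group there. This was not so in wild-type cells, where it was 0.56 for HIF targets and 0.56 for enzymes. The gap between the medians is smaller than the spread within the HIF targets.

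The responses of the genotypes share no array. Across the 32 genes above the dim limit on any array Pearson's r was 0.36 and Spearman's rho 0.39. Within 14 HIF targets r was 0.63, and within 13 enzymes it was -0.15, against -0.02 over all 10542 genes. These are correlations across genes, which are not independent, and they carry no p-value. The response was lower in knockout-labelled than in wild-type cells for 23 of the 32 and higher for 9, against 55.5% and 44.5% of all genes, with a median difference of the responses of -0.42 against -0.06 for all genes. Past 2-fold were Pdk1 (-1.67), Pfkm (-1.45), Hif1a (-1.18) and Adm (-1.13) on the negative side, against 5.53% of all genes, and Hk2 (1.13) on the positive side, against 1.41%. Adm lay below the dim limit in both knockout-labelled cultures and was measured only through the wild-type arrays. Its difference is thus set against background, and Adm also enters the 32 genes and the 14 HIF targets. Which knockout-labelled array is the hypertonic one is known from its label only.

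**Figure D4:**
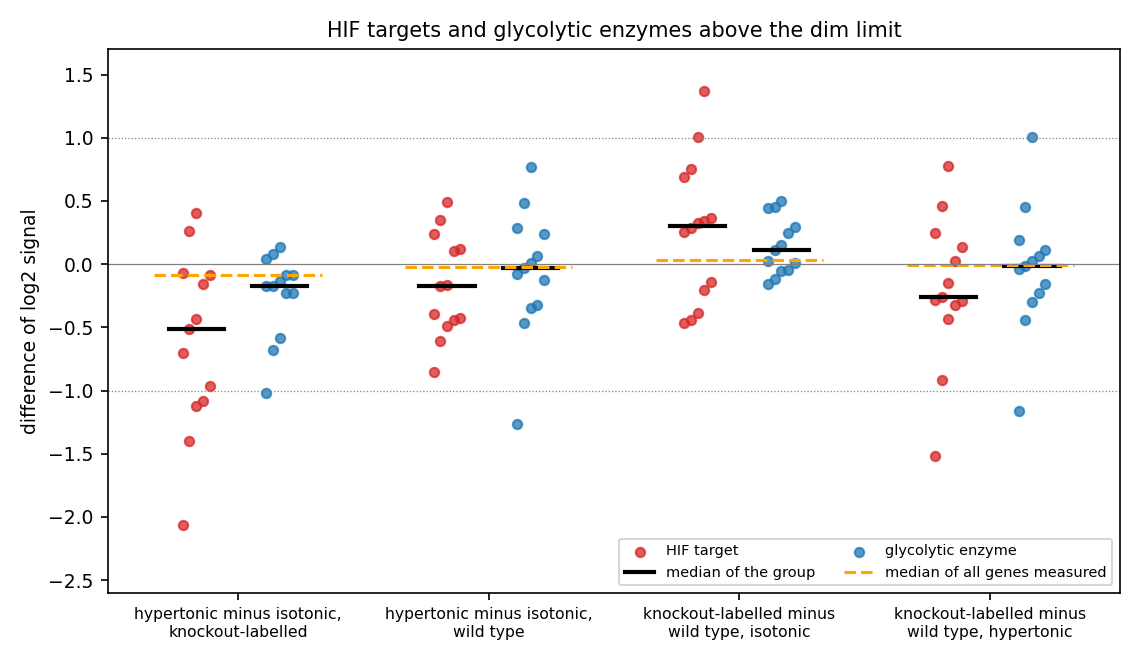
Log2 differences of HIF targets (red) and glycolytic enzymes (blue) above the dim limit in each comparison, 1 point per gene; black bars are group medians and the orange dashed line is the median of all measured genes. HIF target medians are -0.52 and -0.17 in the knockout-labelled and wild-type responses, and 0.30 and -0.26 between genotypes in isotonic and hypertonic medium.

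Between genotypes in isotonic medium, several HIF targets read higher in knockout-labelled cells. Of 31 measured genes 2 were at least 2-fold higher, Ankrd37 (1.37) and Bnip3 (1.004), and none was lower, against 1.59% and 1.28% of 10191 genes. Bnip3 lay inside 2-fold after quantile normalization (0.95). Pdk1 (0.75) and P4ha1 (0.69) followed. The second Bnip3 probe set gave 1.31. HIF targets had a median of 0.30 over 14 genes and enzymes of 0.11 over 13, against 0.03 for all measured genes, and 20 of the 31 lay above 0 and 11 below, against 54.8% and 45.2% of all. Vegfa (-0.47), Ndrg1 (-0.44), Adm (-0.38), Mxi1 (-0.20) and Pfkfb4 (-0.14) were the HIF targets that read lower. Adm was below the dim limit in knockout-labelled isotonic cells (5.24), so its difference is set against background. This comparison and the knockout-labelled response share the knockout-labelled isotonic array, so 1 high array enters both with opposite signs. That array held the highest of the 4 signals for 8 of 14 HIF targets and 7 of 13 enzymes, against 28.6% of all genes above the dim limit on any array.

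In hypertonic medium Hif1a and a mix of enzyme, transporter and target genes differed between genotypes. Of 31 measured genes, Hif1a (-1.64), Adm (-1.52), Slc16a3 (-1.31) and Pfkm (-1.16) were at least 2-fold lower in knockout-labelled cells and Hk2 (1.01) was at least 2-fold higher. Over all 10374 measured genes 6.43% were lower and 2.57% higher, so 2-fold differences were common in this comparison. Adm lay below the dim limit in knockout-labelled hypertonic cells (4.21) and was measured only through the wild-type array, so its difference is set against background. Slc2a3 (-0.998) lay just inside the limit. It too was below the dim limit in knockout-labelled hypertonic cells (4.58), so its difference is also set against background. In all, 12 of the 31 lay above 0 and 19 below, against 49.4% and 50.5% of all measured genes. HIF targets had a median of -0.26 and enzymes of -0.02, against -0.01 for all measured genes. Ankrd37 (0.77) and Bnip3 (0.46) still read higher in knockout-labelled cells, while Pdk1 (-0.92) read lower. Ankrd37 was below the dim limit in wild-type hypertonic cells (5.03), and Pdk1 lay at it in knockout-labelled hypertonic cells (5.41).

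Fibroblast markers differed between the arrays as well. The mean log2 signal of the 12 marker genes was 8.05 and 8.31 in knockout-labelled hypertonic and isotonic cells, against 9.10 and 8.87 in wild-type hypertonic and isotonic cells. Of the 10 markers above the dim limit, 6 were at least 2-fold lower in knockout-labelled than in wild-type cells in hypertonic medium (Col1a1, Col1a2, Col3a1, Pdgfra, Pdgfrb and S100a4), against 6.43% of all measured genes. In isotonic medium Thy1 and S100a4 were at least 2-fold lower, against 1.28% of all, and in the knockout-labelled response Col1a2 was, against 3.08%. Their part in the results for glycolysis and hypoxia genes was not tested. In pools of whole cultures, fewer cells that express a gene and less RNA per cell cannot be told apart.

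Genes around the pathway were read from 5 further lists. Of 11 measured HIF pathway factors, among them Arnt, the constant partner of Hif1a, and Vhl, which targets hydroxylated Hif1a for destruction, none differed 2-fold in any comparison between arrays, and their medians lay between -0.11 and 0.02. Epas1 and Hif3a, the other HIF alpha subunits, lay below the dim limit. Of 30 other hypoxia-induced genes measured in the knockout-labelled response, 2 were at least 2-fold lower, the collagen cross-linking genes Lox (-1.59) and Plod2 (-1.14), against 3.08% of all measured genes, none was higher, and the median was -0.31. In the wild-type response 1 of 28 was lower, the endothelin gene Edn1 (-1.06; below the dim limit in hypertonic medium), against 0.414% of all, with a median of -0.22. In isotonic medium Car12, another carbonic anhydrase (1.99), and the phosphoglucomutase gene Pgm1 (1.32) were higher in knockout-labelled cells, 2 of 29 against 1.59% of all. In hypertonic medium Lox (-1.57) and Plod2 (-1.40) were lower and Car12 (1.08) was higher, also of 29, shares near the 6.43% and 2.57% of all measured genes. Car12 lay below the dim limit in both wild-type cultures (4.83 in hypertonic and 4.91 in isotonic medium) and was measured only through the knockout-labelled arrays, so its differences are set against background.

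Pyruvate dehydrogenase acts on pyruvate, the product of glycolysis. All 10 measured genes of its subunits, kinases, phosphatases and the pyruvate carrier lay below 0 in the knockout-labelled response, against 60.1% of all measured genes, with a median of -0.29. The pyruvate carrier subunit gene Mpc1 (-1.21) was the 1 past 2-fold, against 3.08% of all. In the wild-type response 5 of the 10 lay below 0, with a median of 0.05. Pdk2, a second kinase of the complex, was at least 2-fold lower in knockout-labelled than in wild-type hypertonic cells (-1.14), where it lay below the dim limit in the knockout-labelled culture. Of 9 measured side enzymes and other isoforms of glycolysis, Eno3 (-1.24), the gluconeogenic enzyme gene Pck2 (-1.22) and the lactate dehydrogenase gene Ldhb (-1.15) were also at least 2-fold lower there, against 6.43% of all measured genes, and none passed 2-fold in either response. Ldhb read 5.48 in knockout-labelled hypertonic cells, just above the dim limit of 5.41. The 7 pentose phosphate pathway genes had no 2-fold difference in any comparison between arrays, with medians between -0.11 and 0.12.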

How the data were processed

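The authors deposited 1 log2 signal per probe set and array. The scale was inferred from the range of the values, 1.57 to 13.94. MAS5 is named in the submitters' processing notes, with no version. With background correction and normalization not given in the sources used here, values were used as deposited. Each of the 4 pools had its own array.

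Of 35557 probe sets, 21789 had 1 gene symbol, 1621 several and 12147 none, and those with 1 were used, with symbols updated to RefSeq (GRCm38.p6) through Entrez identifiers. The brightest probe set stood for a gene. The text names Nfat5, all members, and, from 5 lists of related genes, those past 2-fold between 2 arrays, with fibroblast and other marker lists beside them. Members and lists were chosen with earlier results of these data known. With 1 array per group no test was made. Their number limits the precision. Counting was tested on simulated data. Alternatives were quantile and cyclic loess normalization, centring, other dim limits, the mean of probe sets, a 1.5-fold limit and, added after seeing the data, another choice of probe set. Python 3.11.15, pandas 2.3.3, numpy 2.4.6, matplotlib 3.10.9, R 4.3.3 and limma 3.58.1 were used.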

Additional observations from a re-analysis of the deposited data

Results flagged for a closer look

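The responses to hypertonic medium had opposite signs in the genotypes, each at least as large as the spread between probe sets, for 3 genes. The share of all genes that meet this rule was not computed. Opposite signs of any size were common over all genes. Of 32 members, 9 lay above 0 in wild-type and below 0 in knockout-labelled cells, and 1 the other way. Over all 10542 genes these counts were 2880 and 2216. The response in knockout-labelled cells less that in wild-type cells was -1.45 for Pfkm (-0.68 and 0.77), -1.18 for Hif1a (-0.28 and 0.90) and -0.47 for Aldoc (-0.23 and 0.24). On its other probe set Hk1 also had opposite signs beyond this spread (-0.23 and 0.28). With 1 array per group these differences were not tested.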

How the results depend on the processing

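The gap between HIF targets and enzymes and the median difference of the members kept their direction in all 5 comparisons under every alternative run, but not their size. With the dim limit at the 75th percentile the gap was -0.05 between genotypes in hypertonic medium (against -0.24), -0.20 in the difference of responses (-0.38) and -0.27 in the wild-type response (-0.15), and the median of the members was -0.24 in the difference of responses (-0.42) and -0.13 in the wild-type response (-0.07). Counts of genes past 2-fold were small, so 1 gene at the limit moved them. Shares of all genes are given here at 2-fold only, so counts at 1.5-fold have no background beside them. In the wild-type response the 2 lower genes became 1 after quantile normalization, cyclic loess normalization or centring, since Slc16a1 (-1.002) lay at the limit; at a 1.5-fold limit there were 4 lower and 2 higher, against 2 and 0. In the knockout-labelled response 6 lower genes became 4 after quantile normalization or centring (Pfkl at -0.95 and -0.94, Ankrd37 at -0.95 and -0.99), 5 after cyclic loess (Pfkl at -0.93), 4 with the dim limit at the 75th percentile, 7 with no dim limit and 10 at 1.5-fold. Between genotypes in isotonic medium the 2 higher genes became 1 under the 3 other scalings and with the dim limit raised to the 75th percentile, and 4 at 1.5-fold. In hypertonic medium the 1 higher gene, Hk2, became 0 with the stricter dim limit and 3 at 1.5-fold. For the difference of responses, 4 lower genes became 2 with the stricter dim limit and 12 at 1.5-fold, and 1 higher became 2 at 1.5-fold. The median of enzymes between genotypes in hypertonic medium, -0.02, became 0.04 after quantile normalization, both near 0. In the knockout-labelled response the median of all measured genes was -0.09, against 0.01 after quantile normalization, while that of the members was -0.25 and -0.19. Of 110 values of single genes past 2-fold recomputed under the other scalings and probe set choices, 12 came to lie inside 2-fold, those of Pfkl, Ankrd37, Bnip3 and Slc16a1 among them, and 0 changed sign. No paired analysis was possible because each group has 1 array. The depth of an array cannot be read from these values, and signals near the dim limit mix background with expression.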

Other observations

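For 5 of the 6 genes with several probe sets (Bnip3, Bnip3l, Hk1, Pgk1 and Pkm), the brightest probe set is numbered among probe sets of genes on a chromosome other than the gene's own, whereas 96.8% of one-gene probe sets are numbered among genes of their own chromosome. The neighbours are the 20 probe sets before and the 20 after. The Bnip3 gene lies on chromosome 7, and its brightest probe set sits among genes of chromosome 14. With the probe set on the gene's own chromosome in place of the brightest, a choice made after seeing the data, Bnip3 differed by -1.19 in the knockout-labelled response, -0.43 in the wild-type response, 1.31 between genotypes in isotonic medium and 0.55 in hypertonic medium, against -1.40, -0.85, 1.004 and 0.46 on the brightest. The wild-type value moved most. Hk1 gave -0.23, 0.28, 0.22 and -0.29 in the same order, against -0.17, 0.48, 0.50 and -0.16. For Bnip3l, Pgk1 and Pkm no difference between the probe sets exceeded the SD per probe set.

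The knockout-labelled hypertonic array held the lowest of the 4 signals for 7 of 14 HIF targets and 4 of 13 enzymes, against 37.8% of all genes above the dim limit on any array.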
